A study of Mus musculus with 13 samples.

Results

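The activated-state microglia genes described here are Apoe, Cst7, Lpl, Spp1, Itgax, Trem2, Tyrobp, Cd68, Ctsb and Cd9. All are protein coding, and coordinates below are those of the authors' table (mm10). They were taken by gene symbol, and all 10 were found among the 34745 genes of the expression table. RNA of the olfactory bulb, the first relay of smell in the brain, was sequenced from wild type C57BL/6 mice aged 7 to 8 weeks. Some mice had been exposed to PM2.5, the fine fraction of airborne particulate matter. The 13 libraries form 2 sets. The 1st set held 3 libraries of mice at 3 mg/kg/3 day (low dose) and 4 control libraries. The 2nd set held 3 libraries of mice at 10 mg/kg/3 day (high dose) and 3 control libraries. The labels give neither the route of exposure nor whether "/3 day" is an interval or a duration. The samples of a group are numbered, and nothing says that they came from separate animals, so the p-values reflect spread that may be technical.

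The sets differed in more than dose. Total counts were 13.03 to 14.67 M per library in the 1st set and 15.39 to 26.99 M in the 2nd. Xist, the RNA that silences an X chromosome in female cells, ran from 2245 to 2712 CPM (counts per M) across the libraries of the 1st set, while in the 2nd it ran from 0.0992 to 0.555 CPM. The sum of 4 Y-linked genes was 0 to 0.21 CPM in the 1st set and 176.6 to 230 CPM in the 2nd, although the design text calls the mice male. Between the controls of the 2nd set and those of the 1st, 19.3% of 17467 genes tested passed an adjusted p of 0.05. Each dose was therefore compared only with controls of its own set, and dose, set and sex-linked expression cannot be told apart where the doses are compared.

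Microglia are the resident macrophages of the brain. TREM2 is a receptor for lipids and lipoproteins on their surface, and it signals through the adaptor TYROBP (DAP12), which carries the activating motif that TREM2 lacks. In mouse models of amyloid disease and demyelination, activated microglia lower their homeostatic genes and raise a shared group of genes, among them genes for lipid uptake, lysosomal breakdown and adhesion. The genes described here belong to that group. They are not particular to microglia in intact tissue: astrocytes make much of the brain's Apoe, neurons express Ctsb and Lpl, and Cd9 and Spp1 are found in glia and neurons as well. In bulk RNA, more cells of a type and more RNA per cell cannot be told apart.

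The 10 genes spanned a wide range of levels. On the length-scaled FPKM values, averaged over 13 libraries, Ctsb stood highest at 86.3 FPKM, above 99.1% of detected genes, and Apoe followed at 60.4 FPKM. Tyrobp (17.2 FPKM), Cd9 (13.8 FPKM) and Spp1 (9.24 FPKM) came next, then Cd68 (2.95 FPKM) and Trem2 (1.66 FPKM). At the bottom were Cst7 (0.226 FPKM), Lpl (0.207 FPKM) and Itgax (0.13 FPKM), which stood above 26.9% of detected genes. These first 7 held the same order in the means of all 4 groups, and the last 3 changed places between groups. Cd9 and Tyrobp overlapped in the controls of the 1st set, where Cd9 ran from 11.5 to 14.1 FPKM and Tyrobp from 12.5 to 17.6 FPKM. Cst7, Lpl and Itgax rested on few counts: 0 to 16, 8 to 77 and 5 to 32 per library. Cst7 did not pass the filter on low counts, so 9 of 10 genes were tested.

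**Figure D1:**
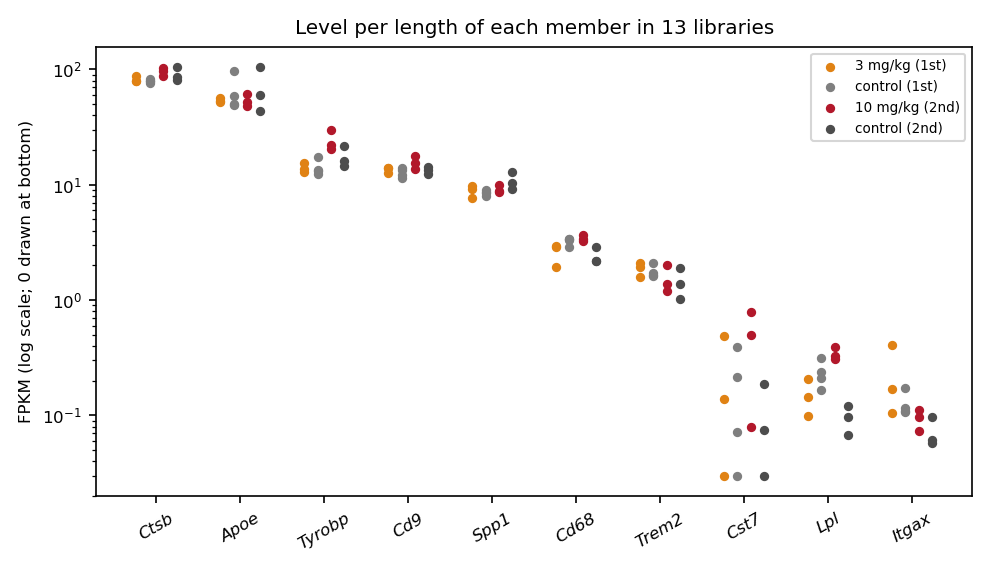
Level of each of the 10 genes in each of the 13 libraries, as FPKM on a log axis, with colours for the 4 groups. Genes run from the highest mean (Ctsb, 86.3 FPKM) to the lowest (Itgax, 0.13 FPKM), and the spread between genes is far wider than that between groups.

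At the high dose, 1 of the 9 genes tested rose against the controls of its set, and that gene was Lpl. Over all genes, 0.641% passed the same adjusted p of 0.05 (112 of 17467), and 0.521% did so as rises (91). Unadjusted p was under 0.05 for Lpl, Tyrobp and Cd68, 3 of 9, beside 9.65% of all genes (1685). In 2 of 9, Lpl and Cd68, all exposed libraries lay above all controls, beside 6.08% of all genes. The median log2 fold change was 0.22 over the 9 genes, with 7 positive and 2 negative, and -0.01 over all genes. At the low dose, no gene of the 9 passed, beside 0% of all genes, and the smallest adjusted p of the whole table was 0.0737 by edgeR (DESeq2 called 19 genes, none of the 9). None of the 9 had an unadjusted p under 0.05, beside 2.46% of all genes (429). Exposed and control libraries overlapped in all 9, where 6.62% of all genes had groups apart, and the median log2 fold change was 0.06 over them and 0.00243 over all genes.

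**Figure D2:**
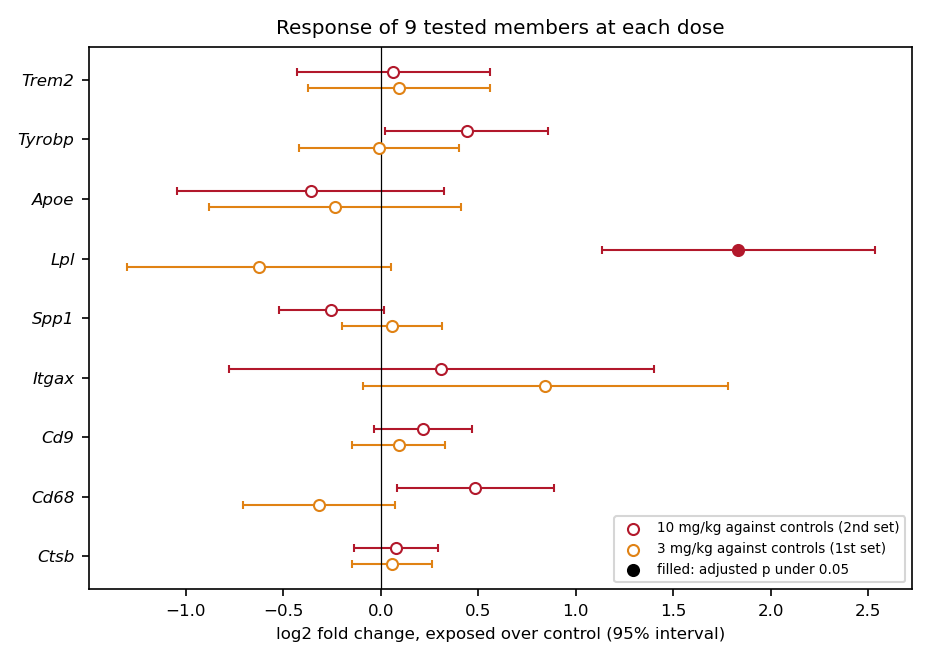
Log2 fold change, exposed over control of the same set, with its 95% interval, for the 9 genes tested at the low dose (3 mg/kg) and the high dose (10 mg/kg). Lpl at the high dose (1.83) is the filled point that passed an adjusted p of 0.05, and the other points, from -0.62 (Lpl, low dose) to 0.85 (Itgax, low dose), did not.

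Trem2, the receptor (chromosome 17, 48346401 to 48354147, plus strand), did not separate exposed from control mice at either dose. It had 8.54, 7.40 and 12.5 CPM in the high-dose libraries, against 6.38, 12.1 and 8.52 CPM in the controls of that set. The fold change was 0.06 on the log2 scale (SE 0.23, 95% interval -0.43 to 0.56, adjusted p = 0.978, edgeR). In the low-dose libraries it had 12.6, 9.64 and 11.7 CPM, against 12.6, 10.4, 9.92 and 9.57 CPM in the controls. Here the log2 fold change was 0.09 (SE 0.22, adjusted p = 1, edgeR), and exposed and control libraries overlapped as before.

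Tyrobp, the adaptor (chromosome 7, 30413788 to 30417577, plus strand), was higher in the high-dose group than in its controls without passing the adjusted threshold. Its levels were 12.6, 11.7 and 17.1 CPM in the high-dose libraries, against 8.29, 12.8 and 9.19 CPM in the controls, so 1 control library lay within the range of exposed mice. That control library was the most deeply sequenced of all 13, at 26.99 M counts. The adaptor's log2 fold change was 0.44 (SE 0.20, 95% interval 0.02 to 0.86, adjusted p = 0.480, edgeR). In low-dose libraries Tyrobp had 8.55, 7.22 and 7.65 CPM, against 9.75, 6.97, 7.47 and 7.30 CPM in the controls, for a change of -0.01 on the log2 scale (SE 0.19, adjusted p = 1, edgeR).

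The ratio of Tyrobp to Trem2, looked at after the values were seen and given with no test, set the libraries in 3 ranges. In CPM it was 1.37 to 1.58 in the high-dose libraries and 1.06 to 1.30 in the controls of that set. In the 1st set it was 0.653 to 0.748 at the low dose and 0.669 to 0.773 in the controls. Most of this spread thus lay between the sets, and within the 2nd set every exposed library had a higher ratio than every control.

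**Figure D3:**
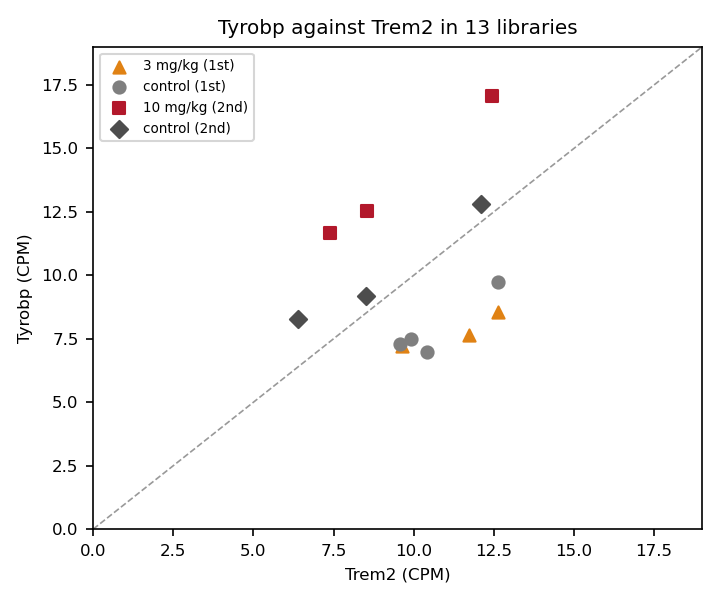
Tyrobp against Trem2, both in CPM, in each of the 13 libraries, with symbols and colours for the 4 groups and a dashed line at equal CPM, which is not scaled for gene length. The 7 libraries of the 1st set lie below the line and the 6 of the 2nd set above it, with the high-dose libraries farthest above (ratio 1.37 to 1.58).

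Genes that work beside this pair were examined as a list of 16, from the kinase Syk and the phospholipase Plcg2 to the sheddases Adam10 and Adam17. Of 15 tested at the high dose, none passed the adjusted threshold, and the median log2 fold change was 0.49. Unadjusted p was under 0.05, all higher, in 8 of 15, beside 5.75% of all genes. The smallest p belonged to Ptpn6, the phosphatase SHP-1, at 6.67 ± 0.16 CPM in high-dose libraries and 4.12 ± 0.17 CPM in controls (SD, n = 3 each). Its log2 fold change was 0.70 (SE 0.17, adjusted p = 0.0979, edgeR). Plcg2, which acts downstream of SYK, averaged 6.53 ± 0.16 CPM in high-dose libraries and 4.22 ± 0.41 CPM in controls (SD, n = 3 each), for a change of 0.63 on the log2 scale (SE 0.16, adjusted p = 0.0979, edgeR). Ptpn6 overlaps Gm20531 and Plcg2 overlaps Gm27361 on the opposite strand, and the sources do not say whether counting used strand. The list's median was -0.02 in the low-dose comparison, where none of 15 passed. There 1 of 15 had an unadjusted p under 0.05, beside 2.46% of all genes. It was Ptpn6, at 0.46 on the log2 scale (SE 0.17).

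Lpl encodes lipoprotein lipase, which frees fatty acids from lipoprotein triglycerides. It lies on chromosome 8 at 68880491 to 68907448 (plus strand). Its counts were low: 48, 51 and 77 in the high-dose libraries, against 8, 20 and 15 in the controls of that set. Scaled for depth these were 2.38, 2.57 and 3.07 CPM in the high-dose libraries, against 0.526, 0.773 and 0.926 CPM in the controls. Every exposed library lay above every control, and the gap between the groups was wider than the spread within either. Lpl rose by 1.83 on the log2 scale (SE 0.33, 95% interval 1.13 to 2.53, adjusted p = 0.0173, edgeR), a 3.61-fold ratio of mean CPM.

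The call was lost without some single control libraries. Without control replicate 1 of the 2nd set the log2 fold change of Lpl was 1.68 with an adjusted p of 0.0533 (edgeR), and without control replicate 3 it was 1.99 with an adjusted p of 0.0558. With each set fitted alone it was 1.84 (adjusted p = 0.145, edgeR). The fold thus moved little while the adjusted p crossed 0.05.

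In the 1st set Lpl did not pass. It had 0.735, 1.11 and 1.56 CPM in the low-dose libraries, against 1.59, 1.27, 2.38 and 1.77 CPM in the controls, for a change of -0.62 on the log2 scale (SE 0.32, adjusted p = 1, edgeR). Of the 3 low-dose libraries, 2 lay below every control and the other within the control range. The high-dose response minus the low-dose response was 2.46 on the log2 scale (SE 0.46, adjusted p = 0.366, edgeR). Over all genes 0.00573% passed for this difference (1 of 17467, Icam1). The baselines differed too: controls of the 2nd set had less Lpl than controls of the 1st, by a log2 difference of -1.22 (SE 0.33, adjusted p = 0.0195, edgeR). The lowest high-dose library, at 2.38 CPM, stood level with the highest control library of the 1st set.

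Apoe (chromosome 7, 19696109 to 19699166, minus strand), the main lipid carrier of the brain and a ligand of TREM2, showed no call and a wide spread among controls. It had 296, 276 and 349 CPM in the high-dose libraries, against 247, 349 and 587 CPM in the controls, for a change of -0.36 on the log2 scale (SE 0.31, adjusted p = 0.822, edgeR). In the low-dose libraries it had 308, 297 and 287 CPM, against 321, 269, 533 and 275 CPM in the controls, for a change of -0.23 on the log2 scale (SE 0.29, adjusted p = 1, edgeR). In each set 1 control library, replicate 3 in both, stood far above the others and set the sign of the estimate. Without it the log2 fold change became 0.04 in the 2nd set and likewise 0.04 in the 1st, and neither passed. The summed CPM of 7 astrocyte markers in the high-Apoe control library of the 2nd set was 2869, the lowest of its group, and in that of the 1st set it was 3435, within the 3383 to 3565 of its group. The part of astrocyte RNA in the Apoe values was not tested.

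Spp1 (chromosome 5, 104435118 to 104441050, plus strand) encodes osteopontin, a secreted ligand of integrins and CD44. It had 47.1, 47.8 and 54.2 CPM in the high-dose libraries, against 55.8, 71.8 and 49.98 CPM in the controls, with overlap between the groups. On the log2 scale the change was -0.25 (SE 0.13, 95% interval -0.52 to 0.02, adjusted p = 0.561, edgeR). Low-dose libraries had 50.8, 49.2 and 40.6 CPM, against 42.1, 46.2, 44.4 and 47.2 CPM in the controls, for a change of 0.06 on the log2 scale (SE 0.12, adjusted p = 1, edgeR). Controls of the 2nd set stood higher than those of the 1st, by a log2 difference of 0.40 (SE 0.12, adjusted p = 0.031, edgeR). On the same strand Spp1 overlaps Gm42793, so reads of the overlap could belong to either.

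Of the surface proteins, Itgax (chromosome 7, 128129547 to 128150657, plus strand) encodes the integrin CD11c, used to mark dendritic cells and activated microglia. It had 8, 12 and 13 counts in the high-dose libraries, against 5, 14 and 5 in the controls, too few to show a moderate change, and the groups overlapped. This gave a log2 fold change of 0.31 (SE 0.51, 95% interval -0.78 to 1.40, adjusted p = 0.935, edgeR). In the low-dose libraries it had 32, 8 and 13 counts, against 8, 13, 8 and 8 in the controls, for a change of 0.85 on the log2 scale (SE 0.44, adjusted p = 1, edgeR). That estimate came from replicate 1 of the low-dose group, at 2.14 CPM, and without it the log2 fold change was 0.12. Of 7 dendritic cell markers 3 were tested and none passed at either dose. Their summed level was 15.9 to 19.1 CPM in high-dose libraries and 15.7 to 20.3 CPM in controls, and 19.2 to 22.0 CPM at the low dose and 20.6 to 21.1 CPM in controls. Clec9a was at 0 in every control of the 2nd set, and Xcr1 and Ccr7 in every control of the 1st.

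Cd9 (chromosome 6, 125460266 to 125494791, minus strand) encodes a tetraspanin, a membrane organiser that partners integrins. It had 32.9, 37.1 and 43.1 CPM in the high-dose libraries, against 32.3, 35.2 and 29.7 CPM in the controls, so the lowest exposed library stood within the control range. Cd9 had a log2 fold change of 0.22 (SE 0.12, 95% interval -0.03 to 0.47, adjusted p = 0.611, edgeR). Low-dose libraries held 32.4, 33.2 and 29.5 CPM, against 32.8, 28.6, 26.8 and 31.0 CPM in the controls, for a change of 0.09 on the log2 scale (SE 0.11, adjusted p = 1, edgeR). Gm28809 and Gm26728 lie opposite Cd9 and could share its reads. In a list of 14 integrins, tetraspanins and osteopontin receptors, 1 rose at the high dose, 4 had an unadjusted p under 0.05, all higher, beside 5.75% of all genes, and the median log2 fold change was 0.21. The gene that rose was Cd53, a leukocyte tetraspanin, at 11.8 ± 1.3 CPM in high-dose libraries and 6.72 ± 1.36 CPM in controls (SD, n = 3 each). Its log2 fold change was 0.80 (SE 0.17, adjusted p = 0.0494, edgeR), and it passed in 6 of 22 other settings of the fit (without control replicate 3 of the 2nd set, adjusted p = 0.187).

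Cd68 (chromosome 11, 69664213 to 69666153, minus strand), the macrosialin of late endosomes and lysosomes of macrophages, was the other gene whose groups parted at the high dose. It had 6.80, 7.70 and 7.18 CPM in the high-dose libraries, against 4.54, 6.26 and 4.57 CPM in the controls, all exposed above all controls. The log2 fold change was 0.49 (SE 0.19, 95% interval 0.08 to 0.89), but the adjusted p was 0.376 (edgeR). The sign was the opposite in the 1st set, with 5.88, 3.95 and 6.03 CPM in low-dose libraries, against 6.80, 5.91, 6.85 and 6.80 CPM in the controls. That log2 fold change was -0.32 (SE 0.18, adjusted p = 1, edgeR), and 1 control library fell among the exposed. The high-dose response minus the low-dose response was 0.80 (SE 0.26, adjusted p = 0.670, edgeR). Cd68 and Lpl were thus 2 of 9 genes with an unadjusted p under 0.05 for the difference, beside 5.99% of all genes.

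Promoters of Cd68 and Trem2 are shown because their transcripts stood at comparable CPM while the high-dose groups parted in Cd68 and overlapped in Trem2. They come from RefSeq (GRCm38.p6), which had a promoter for 7 of the 10 genes, as 250 bases before to 50 after the start, 5′ to 3′. Capitals mark matches to TGANTCA, searched on both strands, where N is any base. This pattern is wider than the element bound by AP-1 factors, TGAGTCA or TGACTCA. Cd68 lies at chr11:69666121-69666420 on the minus strand and Trem2 at chr17:48346151-48346450 on the plus strand.
Cd68: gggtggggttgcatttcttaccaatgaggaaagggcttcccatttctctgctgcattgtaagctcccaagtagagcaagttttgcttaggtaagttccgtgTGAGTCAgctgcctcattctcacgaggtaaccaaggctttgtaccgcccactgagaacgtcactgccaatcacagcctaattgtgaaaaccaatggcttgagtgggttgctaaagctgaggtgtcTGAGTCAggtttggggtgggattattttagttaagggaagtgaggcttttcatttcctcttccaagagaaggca
Trem2: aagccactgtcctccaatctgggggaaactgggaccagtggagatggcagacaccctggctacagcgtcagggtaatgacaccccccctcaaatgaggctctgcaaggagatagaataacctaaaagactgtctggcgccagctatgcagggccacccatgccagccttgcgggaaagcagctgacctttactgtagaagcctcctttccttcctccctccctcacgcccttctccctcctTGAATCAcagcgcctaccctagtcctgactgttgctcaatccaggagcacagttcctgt
Cd68 held 2 matches and Trem2 held 1. A match also stood in Cst7 and Itgax, so 4 of 7 promoters held it, beside 7.81% of all 32851 promoters. Of the other elements searched on both strands, GAGGAAGT (PU.1) was in 1 of 7, Spp1, beside 3.20% of all. TTNNGCAA (C/EBP) was in 3 of 7 beside 10.8%, and CACGTG (E-box) in none beside 7.15%. The TGANTCA matches read TGAGTCA in Cd68 and Itgax, TGAATCA in Trem2 and TGATTCA in Cst7. These motifs were chosen after the sequences were seen. Cd68 and Trem2, which both hold a match to TGANTCA, had high-dose log2 fold changes of 0.49 and 0.06.

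Ctsb (chromosome 14, 63122462 to 63145919, plus strand) encodes cathepsin B, an abundant lysosomal protease. It had 421, 468 and 499.9 CPM in the high-dose libraries, against 416, 514 and 385 CPM in the controls, and the groups overlapped. Its log2 fold change was 0.08 (SE 0.10, 95% interval -0.14 to 0.30, adjusted p = 0.900, edgeR). In the low-dose libraries it had 407, 371 and 374 CPM, against 357, 370, 383 and 367 CPM in the controls, for a change of 0.06 on the log2 scale (SE 0.10, adjusted p = 1, edgeR). Ctsb, with 4730 to 13291 counts a library, gave the narrowest intervals of the 9 genes tested at both doses. Fdft1 lies opposite Ctsb and could share its reads.

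Cst7 (chromosome 2, 150570415 to 150578944, plus strand) encodes cystatin F, an inhibitor of lysosomal cathepsins made by immune cells. It had 16, 10 and 2 counts in the high-dose libraries, against 0, 2 and 3 in the controls. Both higher libraries exceeded every other library of the series, while the third lay within the control range. In a fit with no filter on low counts (25278 genes) the log2 fold change was 2.26 (SE 1.09, adjusted p = 0.648, edgeR). In the low-dose libraries it had 2, 0 and 7 counts, against 5, 3, 1 and 0 in the controls, a log2 fold change of 0.31 in that fit (adjusted p = 1, edgeR).

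Among 22 other lysosomal genes, 1 rose at the high dose, and the median log2 fold change was 0.12. It was Ctss, a cathepsin of macrophages and microglia, at 68.4 ± 9.8 CPM in high-dose libraries and 42.4 ± 5.9 CPM in controls (SD, n = 3 each). Ctss rose by 0.69 on the log2 scale (SE 0.14, adjusted p = 0.0476, edgeR) and passed in 8 of 22 other settings (without control replicate 3 of the 2nd set, adjusted p = 0.186). Unadjusted p was under 0.05 in 5 of 22, all higher, beside 5.75% of all genes. At the low dose the list's median was 0.05 with none passing. There 2 of 22 had an unadjusted p under 0.05, both higher, beside 2.46% of all genes. Ctss was 1 of them, at 0.40 on the log2 scale (SE 0.14).

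**Figure D4:**
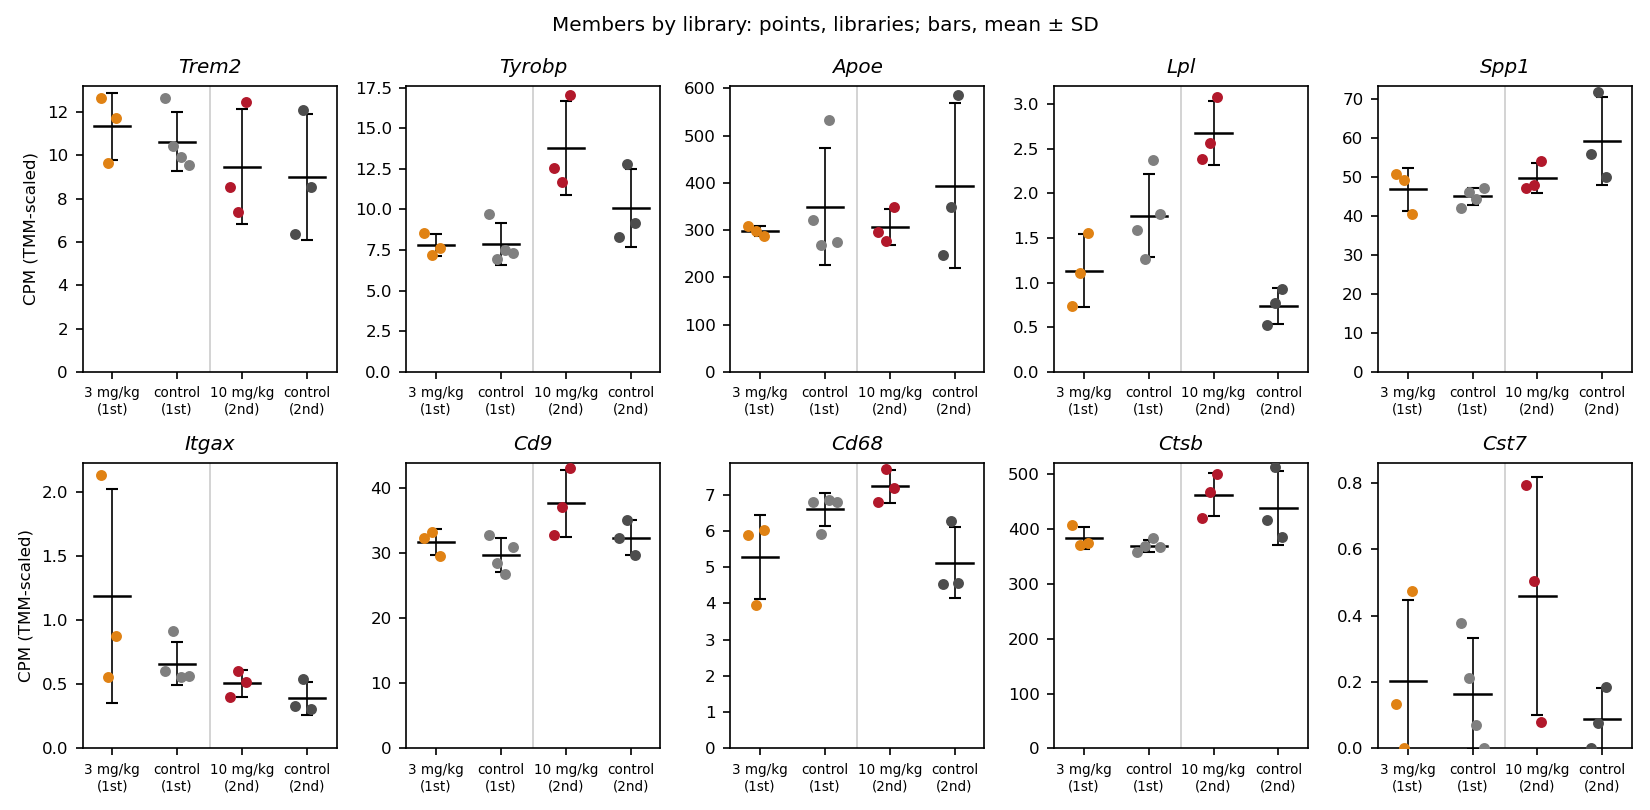
CPM of each of the 10 genes in every library, with the mean and SD of each group, exposed mice left of the controls of the same set. In Lpl the 3 high-dose libraries (2.38 to 3.07 CPM) stand above the 3 controls of their set (0.526 to 0.926 CPM), in Cd68 likewise, and in the other genes the groups overlap.

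Some genes stand in more than 1 of the lists used here: Ctsd, Ctsl and Ctsz in the activated-state and lysosomal lists, Cd63 in the activated-state and integrin lists, and Siglech in the homeostatic and signalling lists. Of 24 other genes of the activated state, 21 were tested, and 1 rose at the high dose, with a median log2 fold change of 0.26. That gene was Cybb, the catalytic subunit of the phagocyte NADPH oxidase, at 1.92 ± 0.64 CPM in high-dose libraries and 0.643 ± 0.184 CPM in controls (SD, n = 3 each). Its log2 fold change was 1.55 (SE 0.32, adjusted p = 0.0385, edgeR), and it passed in 4 of 21 other settings (without control replicate 3 of the 2nd set, adjusted p = 0.159). Unadjusted p was under 0.05 in 8 of 21, all higher, beside 5.75% of all genes. The list's median at the low dose was 0.03 and none passed.

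Lipid handling genes, a list of 22 from the lipase partner Lmf1 to the cholesterol exporter Abca1, held no gene that passed. Of 19 tested at the high dose, 2 had an unadjusted p under 0.05, both higher, beside 5.75% of all genes, and the median log2 fold change was 0.07. The smallest p belonged to Angptl4, an inhibitor of lipoprotein lipase, at 7.44 ± 2.28 CPM in high-dose libraries and 3.18 ± 0.95 CPM in controls (SD, n = 3 each), for a change of 1.24 on the log2 scale (SE 0.31, adjusted p = 0.101, edgeR). Clu, the lipoprotein clusterin, came next at 0.28 on the log2 scale (SE 0.12, adjusted p = 0.404, edgeR). Gpihbp1, which anchors lipoprotein lipase to capillaries, was at 0 in every high-dose and low-dose library and in every control of the 2nd set. None passed at the low dose, where the median was -0.04.

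Homeostatic microglia genes, which define microglia at rest, were present in all libraries and none of them fell by the adjusted threshold. Of 15 tested, 1 rose at the high dose, 9 were positive and 6 negative, and the median log2 fold change was 0.06. Unadjusted p was under 0.05 in 4 of 15, with 3 higher and 1 lower, beside 9.65% of all genes. The gene that rose was Mertk, a receptor for apoptotic cells that astrocytes also express, at 35.5 ± 0.9 CPM in high-dose libraries and 18.98 ± 1.45 CPM in controls (SD, n = 3 each). Its log2 fold change was 0.90 (SE 0.14, adjusted p = 0.00845, edgeR), and it passed in 19 of 22 other settings, though not without control replicate 3 of the 2nd set (adjusted p = 0.054). Mertk overlaps Gm14011 on the opposite strand. At the low dose none of 15 passed, and 1 had an unadjusted p under 0.05, beside 2.46% of all genes. That gene was again Mertk, at 0.34 on the log2 scale (SE 0.13). The summed level of the 15 genes was 603 to 635 CPM in high-dose libraries and 591 to 608 CPM in controls, and 591 to 625 CPM at the low dose and 566 to 612 CPM in controls. Sall1, the 1 gene lower by unadjusted p, weighed most in this sum. It had 202.8 ± 29.8 CPM in high-dose libraries and 242.5 ± 21.5 CPM in controls (SD, n = 3 each). Its log2 fold change was -0.26 (SE 0.10, adjusted p = 0.384, edgeR), so the level sum joins its lower level to the higher ones. In the same controls the next highest gene, Csf1r, averaged 81.3 CPM, and P2ry12 averaged 17.1 CPM. Csf1r overlaps Hmgxb3 and P2ry12 overlaps Med12l on the opposite strand. The part of other cell types in the Sall1 values was not tested.

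**Figure D5:**
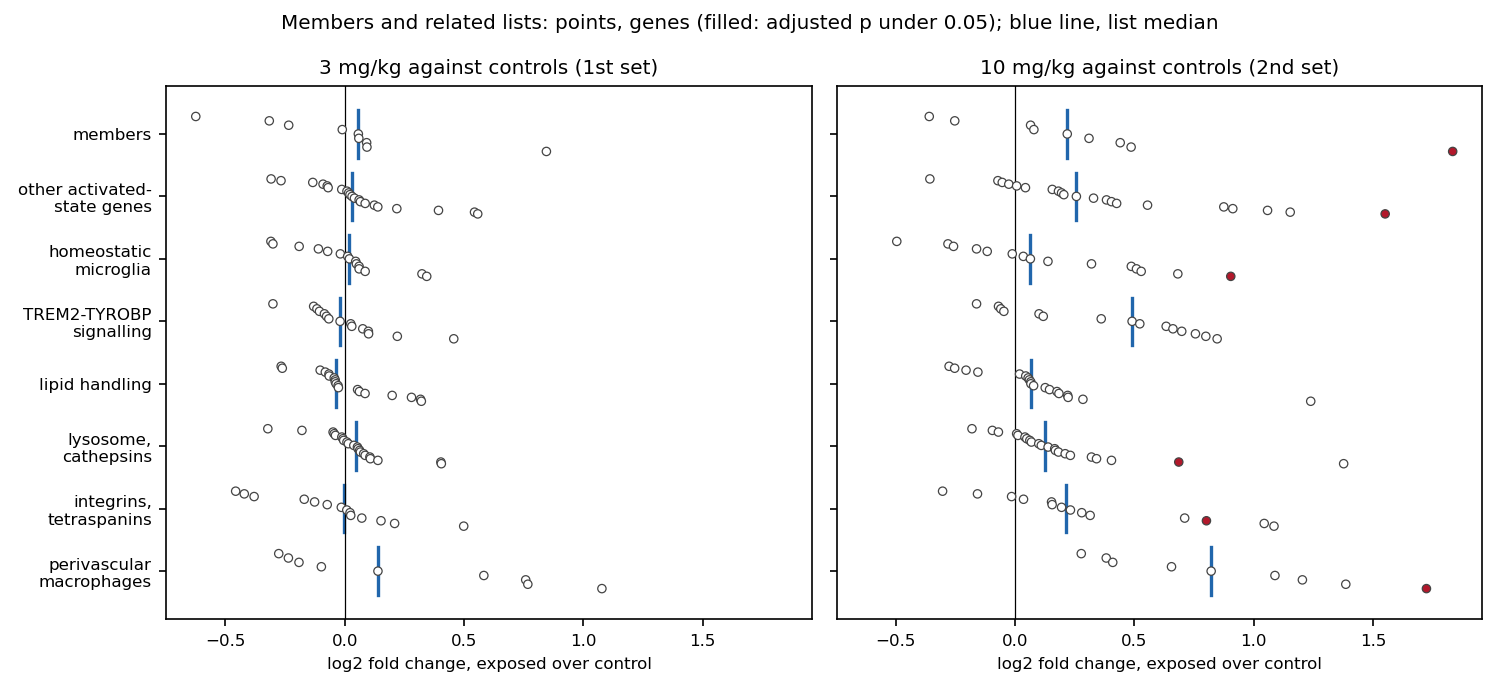
Log2 fold change of each gene tested in the 10-gene group, in 6 related lists and in the perivascular macrophage markers. The low dose is on the left and the high dose on the right. Filled points mark an adjusted p under 0.05, and a line stands at each list's median. In the left panel the medians run from -0.04 (lipid handling) to 0.14 (perivascular macrophages). In the right panel the highest is that of perivascular macrophages (0.82), followed by that of the TREM2-TYROBP signalling list (0.49).

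Among markers of other immune cells, those of perivascular macrophages and of monocytes and neutrophils each held 1 gene that rose at the high dose, and those of dendritic cells held none. Of 9 perivascular macrophage markers 1 rose, Cd163, by 1.72 on the log2 scale (SE 0.37, adjusted p = 0.0488, edgeR, in 6 of 21 other settings too, and at an adjusted p of 0.186 without control replicate 3 of the 2nd set). All 9 were positive, 4 with an unadjusted p under 0.05, beside 5.75% of all genes, and the median was 0.82. Their summed level was 39.8 to 52.7 CPM in high-dose libraries and 26.9 to 36.8 CPM in controls. In the 1st set the sum was 55.2 to 72.1 CPM in exposed mice and 55.0 to 79.3 CPM in controls. Of 9 monocyte and neutrophil markers 4 were tested and 1 rose, S100a9, by 2.59 (SE 0.40, adjusted p = 0.00845, edgeR, in 18 of 21 other settings too, though not without control replicate 3 of the 2nd set, at an adjusted p of 0.054). Of the 4 tested, 3 had an unadjusted p under 0.05, all higher, beside 5.75% of all genes. The 9 markers summed to 11.2 to 15.2 CPM in high-dose libraries and 5.26 to 6.12 CPM in controls, where Ly6c2 and Cxcr2 were at 0. At the low dose their sum was 9.71 to 12.3 CPM in exposed mice and 7.06 to 9.57 CPM in controls.

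Red blood cell markers summed to 114 to 302 CPM in high-dose libraries and 97.2 to 119 CPM in controls, and none of 5 passed. All 5 were positive with an unadjusted p under 0.05, beside 5.75% of all genes, and their median log2 fold change was 1.01. Astrocyte markers summed to 3702 to 3989 CPM in high-dose libraries and 2869 to 3734 CPM in controls, and none of 7 passed. All 7 were positive, 3 with an unadjusted p under 0.05, beside 5.75% of all genes, and the median was 0.19. Of 7 markers each for neurons, oligodendrocytes, olfactory ensheathing cells, endothelium, and pericytes and fibroblasts, none passed at either dose. The summed levels of high-dose libraries and controls overlapped in each, as for endothelium at 212 to 263 CPM in high-dose libraries and 179 to 249 CPM in controls. Among the 7 endothelium markers, unadjusted p was under 0.05 in 2 higher and 1 lower, beside 9.65% of all genes in either direction. Pericyte and fibroblast markers were all 7 positive, 1 with an unadjusted p under 0.05, beside 5.75% of all genes, and their median was 0.46. Their sums were 163 to 186 CPM in high-dose libraries and 129 to 195 CPM in controls. Neuron markers had a median of -0.11, with 5 of 7 negative and 1 lower at an unadjusted p under 0.05, beside 9.65% of all genes in either direction. In the low-dose comparison all 7 oligodendrocyte markers (median -0.21) and all 7 ensheathing cell markers (median -0.19) were negative. All 5 red blood cell markers were positive there (median 0.54). None of these had an unadjusted p under 0.05, beside 2.46% of all genes. Their part in the low-dose results was not tested. The perivascular macrophage sum and the monocyte and neutrophil sum were higher in all high-dose libraries than in all their controls. The other sums overlapped. Lpl and Cd68 parted in the same way, as did 6.08% of all genes. At the low dose the monocyte and neutrophil sum was again higher in all exposed libraries than in all controls. There Lpl and Cd68 overlapped, with log2 fold changes of -0.62 and -0.32. The part of perivascular macrophages, of monocytes and neutrophils, of blood, of astrocytes and of pericytes and fibroblasts in the high-dose results above was not tested.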

How the data were processed

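Olfactory bulb RNA of 13 samples was measured. The labels' protocols name the RNeasy mini kit for extraction and the TruSeq Stranded Total RNA kit for libraries. The submitters' processing notes name HISAT2 and mm10. Counter, annotation release and strand setting: not given in the sources used here. The authors deposited a raw count and an FPKM value per gene and library, per the file headers. For 2894 genes with at least 1000 counts, count over FPKM and total was constant within 5.88e-07, so the deposited FPKM carries no scaling beyond length and depth.

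The robust quasi-likelihood F test of edgeR 4.0.16 (R 4.3.3) was run on the counts, with TMM scaling and the filterByExpr filter, over all 4 groups at once (9 residual degrees of freedom). P-values were Benjamini-Hochberg adjusted over the 17467 genes that passed the filter and called at 0.05. SE is the log2 fold change over the square root of F. CPM uses TMM-scaled totals. Alternatives used DESeq2 1.42.0, limma 3.58.1 on log2(FPKM + 1) and log2(FPKM + 0.1), other scalings and filters, and left-out libraries. No 2 replicates agreed within sampling noise (lowest chi-square per gene 5.99). The fit was tested on simulated data.

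The 10 genes and all lists were chosen with earlier results of these data known. Of each related list, the genes named are those called at either dose, otherwise those with the smallest 2 p-values at the high dose. Sall1 is named besides, for its weight in the homeostatic sum, with Csf1r and P2ry12 for their levels beside it. Marker genes named are those that passed. Coordinates of 7 of 10 genes equal GENCODE M21 (GRCm38).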

Additional observations from a re-analysis of the deposited data

Results flagged for a closer look

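In the controls of the 1st set, Itgax and Cd68 each had 1 library apart from the other 3. It was replicate 2 in both genes. For Itgax that library had 0.915 CPM, against 0.559 to 0.605 CPM in the others, a gap of 0.871 of the group's range. For Cd68 it had 5.91 CPM, against 6.80 to 6.85 CPM in the others, a gap of 0.954 of the range. Both exceed the critical value of Dixon's test for 4 libraries, and chance alone marks about 1 group in 20. The 10 genes gave 10 such groups.

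Lpl and Cd68 had fold changes of opposite sign at the 2 doses. Every high-dose library was above the mean of its controls and every low-dose library below the mean of its own. The difference between the log2 fold changes was 2.46 for Lpl (adjusted p = 0.366, edgeR) and 0.80 for Cd68 (adjusted p = 0.670, edgeR), and neither passed. Dose and set cannot be told apart in it.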

How the results depend on the processing

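Genes called at the high dose numbered 112, and 69 with at least 1 CPM in every library, 291 with DESeq2, 4 with each set fitted alone, 5 with a replicate block, and 21 to 138 without single libraries, lowest when 2nd-set control replicate 3 was dropped (70 without 1st-set control replicate 2, 65 without high-dose replicate 2). The split was 201 higher and 90 lower with DESeq2, 80 and 58 without 2nd-set control replicate 2, and 81 and 51 when the most deeply sequenced library of each 2nd-set group was dropped, a setting chosen after seeing the data. Of the 10 genes, 0 were called under the 1 CPM filter (Lpl was not tested there), the separate fit, the block, the deepest-library setting (Lpl adjusted p = 0.0857, edgeR), and 0 to 1 without single libraries. At the low dose 19 genes were called with DESeq2, 2 with limma on log2(FPKM + 1), 9 with the separate fit, 1 in the deepest-library setting and 0 to 2 without single libraries, none of them among the 10. For the difference of doses these counts were 2 with no filter, 17 with DESeq2, 0 with limma on log2(FPKM + 1), 0 with the block and 0 to 6 without single libraries; DESeq2 called 1 of the 10, Lpl (2.47, adjusted p = 0.0112). The cause was not tested.

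Signs of some log2 fold changes that had not passed turned without single libraries. Ranges at the high dose were -0.60 to 0.0417 for Apoe, -0.17 to 0.33 for Trem2 and -0.0070 to 0.19 for Ctsb. At the low dose they were -0.34 to 0.0427 for Apoe, -0.0040 to 0.14 for Spp1 and -0.082 to 0.108 for Tyrobp. For the difference of doses they were -0.40 to 0.28 for Apoe, -0.87 to 0.20 for Itgax, -0.26 to 0.23 for Trem2 and -0.064 to 0.133 for Ctsb. Trem2 also turned to 0.0023 with limma on log2(FPKM + 0.1) and to 0.0383 with the block.

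The labels number the samples without saying that equal numbers pair them. Correlations of same-numbered samples were -0.384 to 0.135 in the 2nd set, and with so few libraries a group they cannot exclude pairing. With the block, Lpl changed by 1.85 at the high dose and did not pass (adjusted p = 0.0984, edgeR). Mertk and S100a9 lost their calls without control replicate 3 of the 2nd set (each adjusted p = 0.054, edgeR), in the separate fit and with the block. Cybb, Ctss, Cd53 and Cd163 lost theirs in most settings, also without single libraries. Intervals at 5 to 32 counts (Itgax) are wide enough to hide a doubling, and Cst7 could not be tested after the filter.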

Other observations

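Apoe was highest in replicate 3 of the controls in both sets, at 587 CPM in the 2nd set and 533 CPM in the 1st, against 247 to 349 CPM in the other 11 libraries. In the same libraries the summed level of 7 olfactory ensheathing cell markers was the lowest of its control group, at 332 CPM in the 2nd set and 443 CPM in the 1st. The same held for other sums, given here with the 2nd set first. They were endothelium (179 and 250 CPM), pericytes and fibroblasts (129 and 241 CPM) and perivascular macrophages (26.9 and 55.0 CPM). The list of integrins, tetraspanins and osteopontin receptors was lowest there too (635 and 731.5 CPM). None of the other lists had its lowest sum in replicate 3 of both control groups. A sum is ruled by its most abundant genes. On the mean log2 CPM per gene, 1st-set control replicate 3 was not lowest for perivascular macrophages (1.63, against 1.35 in replicate 2). The same was so for pericytes and fibroblasts and for the integrin list. No explanation was tested.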
